A study of Mus musculus with 3 samples.

Results

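Abcc9 and Kcnj8 encode the 2 subunits of the vascular ATP-sensitive potassium (K-ATP) channel, and both were measured among the 31053 genes of a single-cell RNA sequencing study of adult mouse bone marrow. The pair was chosen by symbol after earlier results of these data had shown the genes to be high in sinusoidal endothelium, so their pattern across endothelial cells is given as a description, without a test. Cells with at least 500 genes and at most 10% mitochondrial UMIs (unique molecular identifiers, each a counted transcript) were kept, and both genes were detected in all 3 libraries. There was 1 library per genotype. WT is the wild-type library. FLOX is that of Vegfc flox/flox mice, whose Vegfc gene Cre can delete and whose genotype label names no Cre. VC is that of Cdh5CreERT2;Vegfc flox/flox mice, in which the Cdh5 (VE-cadherin) promoter drives a tamoxifen-dependent Cre in endothelium. Mice of all 3 genotypes were C57Bl/6JCrl and were given tamoxifen by gavage. Tibial marrow was flushed and digested after intravenous labelling of vessels with a VE-cadherin antibody, and endothelial and LepR-positive stromal cells were isolated. The sources used here do not give the age or number of the mice, nor the sorting gates. With no replicate of any genotype, every interval below covers counting error only, no difference between libraries has a replicate check, and no p-value is given.

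A K-ATP channel is an octamer of pore-forming inward rectifier subunits, each paired with a sulfonylurea receptor of the ABC transporter family. The pore closes when ATP is high and opens when metabolism falls, which hyperpolarises the cell; in blood vessels the channel is best known in smooth muscle and pericytes, where its opening relaxes the vessel. Kcnj8 encodes the pore subunit Kir6.1 and Abcc9 the regulatory subunit SUR2, whose splice forms SUR2A and SUR2B are not separated by counts per gene. The alternative pair, Kcnj11 (Kir6.2) and Abcc8 (SUR1), makes the channel of pancreatic beta cells. Sinusoids are the wide, leaky capillaries of the marrow, marked by the scavenger receptor Stab2.

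The files give the genes as ENSMUSG00000030249 (Abcc9) and ENSMUSG00000030247 (Kcnj8). In GRCm38 (GENCODE M21) they are neighbours on the minus strand of chromosome 6. Kcnj8 spans 142564837 to 142571614 and Abcc9 spans 142587862 to 142702315, with 16247 bases between them, so that Abcc9 lies upstream of Kcnj8. An antisense gene, 5330439B14Rik, lies inside Abcc9 (142614595 to 142626462, plus strand). It had 85, 27 and 20 UMIs in the endothelial cells of WT, FLOX and VC, against 68852, 42306 and 29054 for Abcc9; whether the counting used strand was not tested. The sequences just upstream of each start are shown because the genes are neighbours detected in the same cells; they come from RefSeq (GRCm38.p6), run 5′ to 3′ on the minus strand and stop before the outermost annotated start, so that Abcc9 has 209 bases and Kcnj8 250. Capitals mark the ETS core GGAA and the GATA core on either strand, letters shared by binding sites of 2 factor families with members active in endothelium.
Abcc9, chr6:142702316-142702524: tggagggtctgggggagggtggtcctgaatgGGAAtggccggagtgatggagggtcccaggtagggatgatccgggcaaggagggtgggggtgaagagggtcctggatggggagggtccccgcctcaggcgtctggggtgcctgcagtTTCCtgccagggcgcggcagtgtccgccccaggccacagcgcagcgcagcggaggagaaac
Kcnj8, chr6:142571615-142571864: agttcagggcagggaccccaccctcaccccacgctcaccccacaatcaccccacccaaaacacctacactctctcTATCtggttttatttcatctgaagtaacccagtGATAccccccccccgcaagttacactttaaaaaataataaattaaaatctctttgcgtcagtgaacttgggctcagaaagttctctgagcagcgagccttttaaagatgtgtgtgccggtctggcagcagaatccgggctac
In these stretches Abcc9 has 2 GGAA cores and 0 GATA cores, and Kcnj8 has 0 and 2. Over the whole 300-base windows, from 250 bases before to 50 after the RefSeq start, Abcc9 had 3 matches to GGAA and Kcnj8 had 1, and 96.0% of the 32851 mouse windows of that length held one. GATA matched once in the Abcc9 window and 2 times in that of Kcnj8 (57.9% of windows). The E-box CANNTG matched once in each (72.3% of windows). ACAAT, the SOX core, matched once in Kcnj8 and not in Abcc9 (31.0% of windows), and GGGCGG, the GC box, matched once in Abcc9 and not in Kcnj8 (35.7% of windows). The Abcc9 window alone held a match to the MEF2 site, which 3.19% of windows hold. TATAAA and the SRF CArG box matched in neither. Both strands were searched, and none of the 7 matches in Abcc9 and 5 in Kcnj8 overlapped another. The windows also differ in base composition, with 65.7% G and C in Abcc9 and 53.3% in Kcnj8, against a median of 52.7%.

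The files hold 5718 (WT), 6529 (FLOX) and 3377 (VC) barcodes, where the study aimed at 3000 to 5000 cells per library. Of these 4318, 5734 and 2738 passed the filter, with medians of 10404, 8702 and 10917 UMIs per cell. Pairs of libraries shared 3 to 7 passing barcodes. The endothelial gate (at least 1 Cdh5 UMI and under 50 Cxcl12 UMIs) held 3196, 3581 and 1840 cells, and the LepR stromal gate (at least 50 Cxcl12 UMIs, at least 1 of Lepr or Adipoq, at most 2 of Cdh5) held 264, 1107 and 466. Vegfc, the targeted gene, was sparse in endothelial cells, with 1.62 CPM (66 UMIs) in WT, 0.810 (27 UMIs) in FLOX and 0.258 (6 UMIs) in VC, where CPM is the gene's UMIs per 1e6 UMIs summed over the cells. These 3′ counts do not show whether the deleted exon is present. In the stromal gate Vegfc stood at 246, 201 and 145 CPM. The 6 sinusoidal genes summed to 8172 to 8640 CPM in endothelial cells with 5 or more Stab2 UMIs and 258 to 345 in stroma. The 6 LepR stromal genes summed to 187 to 205 and 30242 to 35263. These sums include Stab2, Cxcl12, Lepr and Adipoq, which set the gates, so they are no independent check of them.

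Nearly all transcripts of the channel came from endothelium. Of all Abcc9 UMIs in passing cells, 98.6% (WT), 96.0% (FLOX) and 98.5% (VC) were in the endothelial gate, which held 74.0%, 62.5% and 67.2% of the cells. For Kcnj8 the shares were 98.9%, 97.2% and 98.7%. Abcc9 stood at 1689.7 CPM in WT endothelial cells (95% interval 1677 to 1702), 1269 in FLOX and 1248 in VC, and a UMI of it was seen in 97.1%, 93.1% and 93.3% of the cells. Kcnj8 stood at 378 CPM in WT (372 to 384), 272 in FLOX and 282 in VC. It was seen in 86.2%, 73.8% and 77.7% of cells. Cells of the neutrophil lineage were deeper than the endothelial cells, at medians of 16369 to 19178 UMIs against 7600.0 to 10938. They had an Abcc9 UMI in 13.8%, 10.2% and 9.84% of cells and a Kcnj8 UMI in 3.87%, 3.91% and 0 of 61. The source of these UMIs, such as free RNA in the droplets, was not tested. The levels by cell class are plotted for each library.

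**Figure D1:**
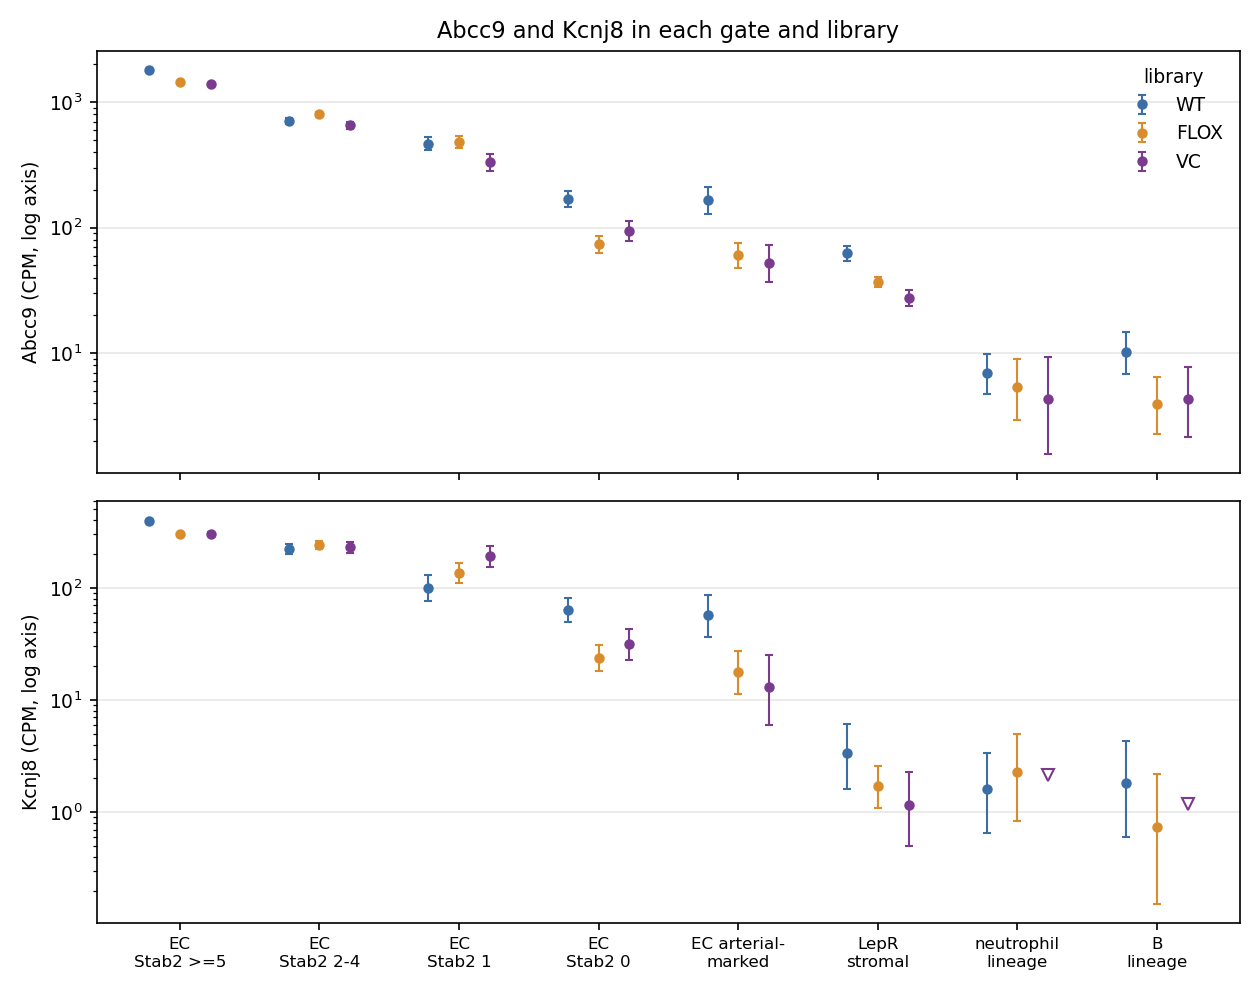
Abcc9 (top) and Kcnj8 (bottom) in CPM of summed UMIs, on log axes, for each gate and library; EC is the endothelial gate, points are single libraries, bars are exact 95% Poisson intervals, and open triangles stand at the level of 3 UMIs where none was counted. In WT, Abcc9 stands at 1795 CPM in endothelial cells with 5 or more Stab2 UMIs and 62.4 in stromal cells. It stands at 10.3 in the B lineage and 6.95 in the neutrophil lineage. Kcnj8 stands at 398 CPM in those WT endothelial cells and 3.36 in WT stromal cells.

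Abcc9, the regulatory subunit, was ordered with Stab2 in every library. In WT it stood at 169 CPM in endothelial cells with no Stab2 UMI, 469 with 1, 706 with 2 to 4 and 1795 with 5 or more. In FLOX the levels were 73.5, 484, 802 and 1440.3 CPM. In VC they were 94.4, 332, 653 and 1387. The intervals of neighbouring bins did not overlap in any library. From the lowest to the highest bin the ratio was 10.6 (9.15 to 12.4) for WT, 19.6 (16.9 to 22.9) for FLOX and 14.7 (12.3 to 17.7) for VC. The cells with 5 or more Stab2 UMIs, 2800, 2756 and 1476 of the endothelial cells, carried 96.3%, 89.7% and 94.4% of all Abcc9 UMIs.

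Kcnj8, the pore subunit, followed the same order with a shallower slope. From 0 to 5 or more Stab2 UMIs it stood at 63.7, 100.5, 220.3 and 398 CPM in WT. In FLOX the levels were 23.9, 136, 240.2 and 299.6 CPM, and in VC 31.7, 190.3, 229 and 304. In VC the bins of 1 and of 2 to 4 UMIs did not differ beyond counting error (ratio 1.20, 0.95 to 1.54). From the lowest to the highest bin the ratio was 6.25 (4.92 to 8.07), 12.5 (9.63 to 16.6) and 9.59 (7.09 to 13.3) in the order WT, FLOX, VC. Both genes passed 5-fold between these bins in all 3 libraries, as did 1.88%, 2.23% and 2.36% of the genes measured in WT, FLOX and VC. This contrast led to the choice of the pair, so nothing is read from that share.

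The size of these ratios moved with the cells that fill the bin without Stab2. Those cells, 125, 256 and 137 in number, were shallower, at medians of 5773, 6203 and 7068 UMIs against 11302, 8199 and 11113 in the highest bin. They held leukocyte RNA: Ptprc (CD45) stood at 218, 105 and 119 CPM, against 5.13, 24.9 and 18.3 in cells with 5 or more Stab2 UMIs. Without the cells that had a Ptprc UMI or mural genes, the Abcc9 ratio was 5.66, 12.1 and 11.3, and the Kcnj8 ratio 3.43, 7.57 and 7.12. When each cell's CPM was averaged instead, the ratios were 5.27, 10.4 and 6.25 for Abcc9 and 2.96, 6.50 and 3.94 for Kcnj8. When cells were thinned to 3000 UMIs before Stab2 was binned, they were 3.80, 5.45 and 3.90 for Abcc9 and 2.51, 3.63 and 2.16 for Kcnj8. When the thinned counts were binned on each cell's full Stab2 count instead, they were 8.10, 16.3 and 14.4 for Abcc9 and 6.24, 9.29 and 7.62 for Kcnj8, so the size at equal depth differed with how Stab2 was binned. Both genes were higher with Stab2 in every library under each of these treatments.

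Few cells passed as mural, the usual site of this channel. Only 2, 1 and 1 cells of the endothelial gate had 5 or more UMIs of Rgs5, Notch3 and Myh11 together, and these cells held 7, 0 and 2 Abcc9 UMIs and 1, 0 and 0 Kcnj8 UMIs. In cells with 5 or more Stab2 UMIs the pericyte gene Rgs5 stood at 2.14, 1.09 and 1.30 CPM, and the smooth muscle genes Myh11 and Acta2 at or under 0.30. The summed level of the 10 mural genes was 91.2, 70.6 and 89.9 CPM there, of which Mcam, a gene that endothelium also expresses, made up 82.3, 63.2 and 84.6. In cells without Stab2 the mural sum was 711, 189 and 262 CPM, with Rgs5 at 268, 29.9 and 125. Without the 1 cell per library in that bin with 5 or more of those UMIs, Abcc9 ratios of highest to lowest bin were 10.5, 19.5 and 14.8. With it they were 10.6, 19.6 and 14.7. The part of mural RNA in the remaining cells of that bin was not tested. Outside the gate 1 WT and 1 VC cell passed as mural. The VC cell held 8 Abcc9 and 0 Kcnj8 UMIs, and the WT cell held neither.

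Within the sinusoidal bin Abcc9 was spread over nearly every cell. A UMI was seen in 99.96%, 99.6% and 99.5% of the cells with 5 or more Stab2 UMIs. The level of single WT cells was 818 CPM at the 10th percentile, 1782 at the median and 2947 at the 90th. In FLOX these were 603, 1429 and 2557 CPM, and in VC 607, 1350.3 and 2314. Kcnj8 was seen in 92.0%, 82.4% and 85.2% of the same cells, and at 3000 UMIs per cell in 62.9%, 54.8% and 56.0%, against 97.7%, 95.5% and 95.02% for Abcc9. The highest counts in a single cell were 169, 107 and 172 UMIs for Abcc9 and 47, 31 and 41 for Kcnj8, not necessarily in the same cell.

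Endothelial cells with no Stab2 and at least 2 UMIs of Gja4, Gja5, Sema3g and Bmx were taken as arterial-marked. They were low for both genes beside the bin of 5 or more Stab2 UMIs. Abcc9 stood at 60.4 CPM in the 142 FLOX cells and 52.7 in the 67 VC cells, which is 23.9- and 26.3-fold under the bin of 5 or more Stab2 UMIs. In the 32 WT cells it stood at 167 CPM, 10.7-fold under. Kcnj8 stood there at 57.4 (WT), 17.9 (FLOX) and 13.2 (VC) CPM. WT was above FLOX and VC beyond counting error for both genes. The WT cells were also less arterial by markers: the 8 arterial genes summed to 815 CPM there, with Gja5 and Hey1 at 0, against 2177 and 2048, while the 5 sinusoidal genes other than Stab2 summed to 1299 against 745 and 916. The 10 mural genes summed to 1803 CPM in the WT cells against 325 and 449, with Rgs5 at 701, 57.1 and 239.9 and Acta2 at 339, 24.5 and 5.85. Of the WT endothelial cells without Stab2, 1 had 5 or more UMIs of Rgs5, Notch3 and Myh11 together. It held 1 Abcc9 and 0 Kcnj8 UMIs, where the 32 arterial-marked WT cells held 67 and 23. How many of the 32 cells carried the mural sum, and the part of these markers in the difference, was not tested.

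The 2 subunits were not in the same proportion in every class of cell. Per Kcnj8 UMI there were 4.51 Abcc9 UMIs in WT cells with 5 or more Stab2 UMIs (4.43 to 4.59), 4.81 in FLOX and 4.56 in VC. With no Stab2 UMI the ratio was 2.66 (2.00 to 3.57), 3.07 (2.26 to 4.23) and 2.98 (2.08 to 4.33) in WT, FLOX and VC. It was thus lower in the bin without Stab2 in all 3 libraries, with intervals apart. A ratio of UMIs of 2 genes carries each gene's own capture and is compared between cells, not read as a stoichiometry. At 1 Stab2 UMI the ratio differed between libraries, at 4.67, 3.56 and 1.74, on 60 to 125 cells, and 16 of the 90 Kcnj8 UMIs of VC came from 1 cell. At 2 to 4 UMIs it was 3.21, 3.34 and 2.85. From the shallowest to the deepest of 3 equal groups of sinusoidal cells the ratio went from 4.41 to 4.55 in WT, from 4.84 to 4.79 in FLOX and from 4.90 to 4.41 in VC.

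**Figure D2:**
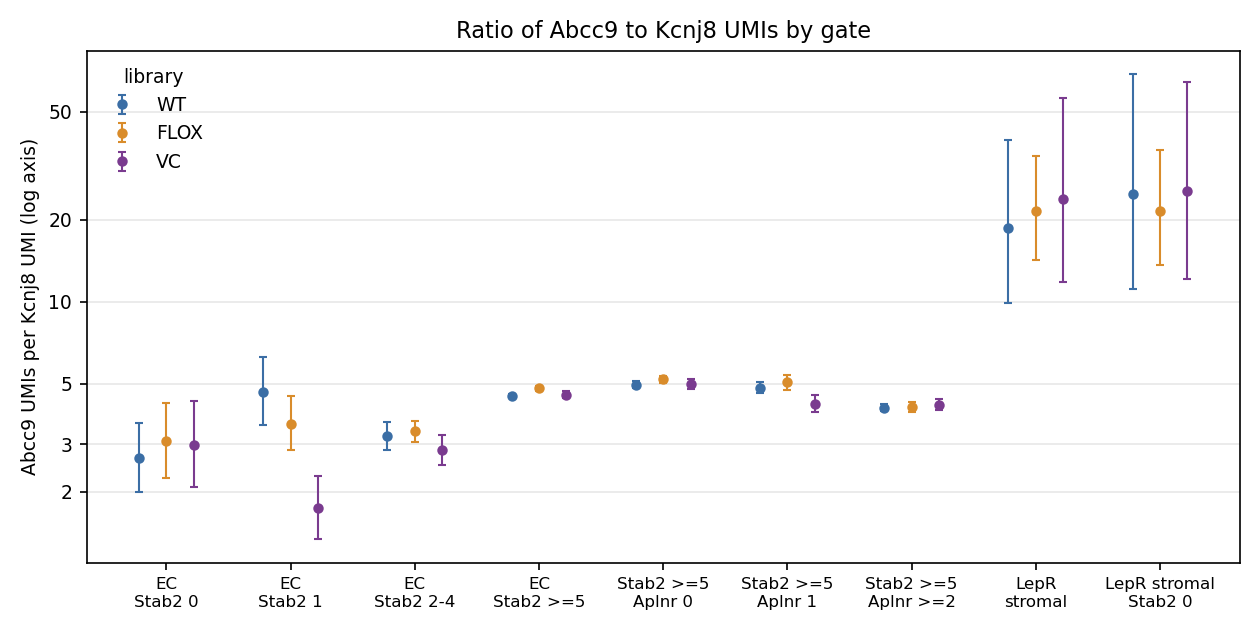
Abcc9 UMIs per Kcnj8 UMI (log axis) by gate and library; EC is the endothelial gate, and bars are exact 95% conditional binomial intervals that cover counting error only. The ratio sits at 4.09 to 4.19 in sinusoidal cells with 2 or more Aplnr UMIs, at 4.95 to 5.18 without Aplnr, and at 18.6 to 23.9 in LepR stromal cells.

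Aplnr, the apelin receptor, separated the subunits within sinusoidal cells. Among cells with 5 or more Stab2 UMIs, Kcnj8 stood at 355 CPM with no Aplnr UMI, 384 with 1 and 443 with 2 or more in WT. In FLOX the levels were 268, 305 and 365 CPM, and in VC 272, 330 and 341. The ratio of 2 or more to none was 1.25 (1.20 to 1.29), 1.36 (1.30 to 1.43) and 1.26 (1.19 to 1.33) in WT, FLOX and VC. Abcc9 moved by 1.03 (1.01 to 1.05), 1.08 (1.06 to 1.11) and 1.05 (1.03 to 1.08) between the same cells. Cells with Aplnr were deeper, at medians of 13323, 10242 and 14198 UMIs against 10355, 7586 and 10070.0 without it. At 3000 UMIs per cell Kcnj8 was still seen in 68.0%, 63.4% and 60.8% of the cells with 2 or more Aplnr UMIs and 59.5%, 51.7% and 53.2% of those with none. The Abcc9 to Kcnj8 ratio went from 4.95 to 4.09 in WT, from 5.18 to 4.11 in FLOX and from 4.999 to 4.19 in VC.

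Cells high in Cxcl9, an interferon-induced chemokine, also had more Kcnj8. Within the sinusoidal bin Kcnj8 was 1.27, 1.28 and 1.19 times as high with 5 or more Cxcl9 UMIs as with none in WT, FLOX and VC. Abcc9 was 1.18, 1.15 and 0.99 times as high. The cells with 5 or more Cxcl9 UMIs were deeper here too, at medians of 14934, 11434 and 12173 UMIs against 9765, 7406 and 9310.0.

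Detection of the 2 genes in the same cell was the rule in endothelium. Both had a UMI in 85.8% of WT, 72.8% of FLOX and 76.6% of VC endothelial cells, and Kcnj8 alone in 0.34%, 1.01% and 1.03%. The product of the 2 single shares is 83.7%, 68.7% and 72.4%, so most of this follows from the high detection of each gene. Where Abcc9 was seen, Kcnj8 was seen in 88.4%, 78.2% and 82.2% of cells. Where Abcc9 was not seen, in 93, 246 and 124 cells, it was seen in 11.8% (6.05% to 20.2%), 14.6% (10.5% to 19.7%) and 15.3% (9.48% to 22.9%). At 3000 UMIs per cell, with 145, 199 and 70 shallower cells left out, the shares were 62.2%, 53.6% and 54.8% with Abcc9 and 24.5%, 25.1% and 26.3% without. The gap persisted at equal depth, and its ratio went from 7.47, 5.34 and 5.36 to 2.54, 2.14 and 2.08. Both genes were then seen in 58.3%, 47.2% and 48.4% of cells, where the product of the single shares is 56.1%, 44.2% and 45.4%.

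**Figure D3:**
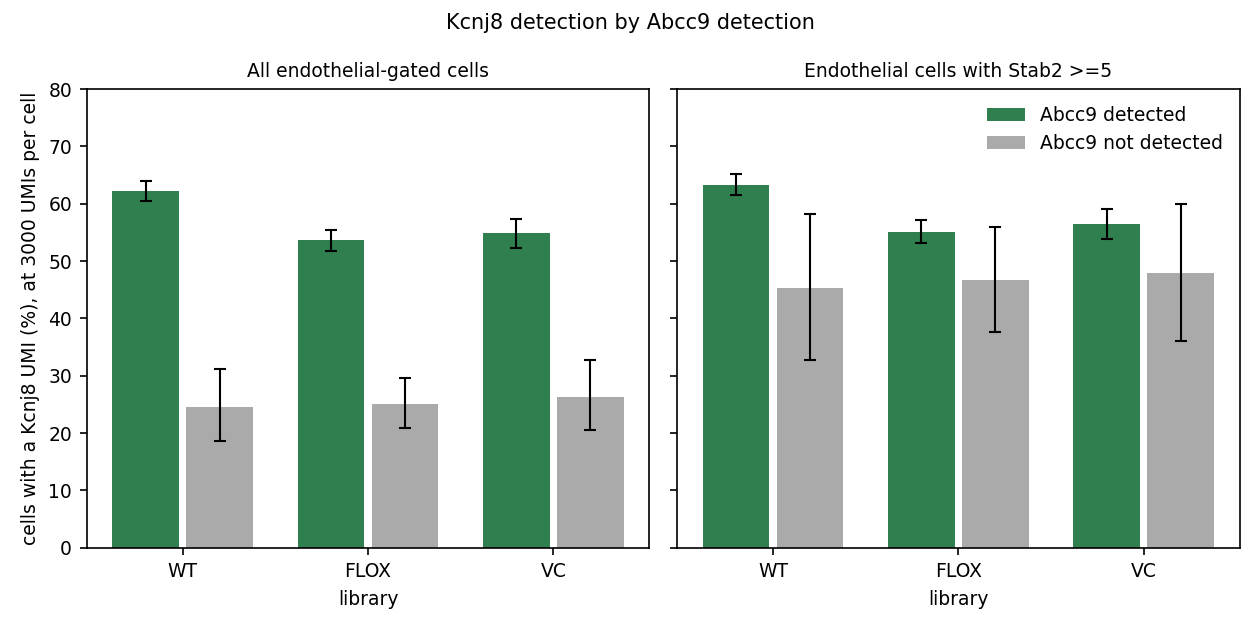
Share of cells with a Kcnj8 UMI (percent, each cell thinned to 3000 UMIs) among cells with and without an Abcc9 UMI, in all endothelial cells (left) and in those with 5 or more Stab2 UMIs (right), by library; bars carry exact 95% binomial intervals. The gap of 62.2% against 24.5% in WT on the left is 63.3% against 45.3% on the right.

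Within the sinusoidal bin the gap was smaller. In cells with 5 or more Stab2 UMIs, at 3000 UMIs per cell, Kcnj8 was seen in 63.3%, 55.2% and 56.5% of cells with Abcc9 and in 45.3% (32.8% to 58.3%), 46.7% (37.6% to 56.0%) and 47.9% (36.1% to 60.0%) of those without. Both were seen in 61.9%, 52.7% and 53.6% of cells, where the product of the 2 single shares is 61.5%, 52.3% and 53.2%. The WT cells with 0 thinned Abcc9 UMIs averaged 0.77 Kcnj8 UMIs and those with 10 or more averaged 1.56. In FLOX the means were 0.75 and 1.32, and in VC 0.68 and 1.14. The rise was not even in these 2 libraries, with 0.71 in FLOX at 1 or 2 Abcc9 UMIs and 1.16 in VC at 6 to 9. Spearman's rho between the thinned counts was 0.14, 0.16 and 0.13 over 2766, 2704 and 1467 cells of 1 library each, which in counts this sparse is a weak relation. In cells without Stab2, unthinned, Kcnj8 was seen in 41.1%, 32.9% and 44.9% of cells with Abcc9 and 8.70%, 6.78% and 5.68% of those without, at the uneven depths and with the leukocytes given above.

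LepR stromal cells, the Cxcl12-rich perivascular cells around sinusoids, held Abcc9 at a low level and very few Kcnj8 UMIs. Abcc9 stood at 62.4 CPM in WT (186 UMIs, 53.8 to 72.1), 37.0 in FLOX (497 UMIs, 33.9 to 40.4) and 27.4 in VC (191 UMIs, 23.7 to 31.6). This was 27.1-, 34.3- and 45.5-fold under the endothelial cells of the same library. Kcnj8 stood at 3.36, 1.71 and 1.15 CPM, on 10, 23 and 8 UMIs, 113-, 158- and 245-fold under. Both genes were at least 5-fold lower in stromal than in endothelial cells in each library, as were 7.53%, 6.78% and 7.06% of the genes measured in WT, FLOX and VC.

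Abcc9 was higher in the stroma than in the neutrophil and B lineages, while Kcnj8 rested on few UMIs. Abcc9 was 8.98-fold (6.09 to 13.7), 6.93-fold (4.09 to 12.8) and 6.38-fold (2.88 to 17.6) higher in stromal cells than in the neutrophil lineage, and 6.07-, 9.35- and 6.34-fold higher than in the B lineage. It was seen in 37.1%, 27.6% and 24.7% of stromal cells at medians of 10654 to 13582 UMIs, above the neutrophil shares given earlier. Stab2 stood at 19.5, 11.5 and 5.31 CPM in stroma and at 6.72, 6.10 and 2.86 in the neutrophil lineage. In the B lineage Stab2 stood at 13.2, 7.43 and 7.47 CPM. The part of endothelial RNA in these Abcc9 contrasts was not tested. Kcnj8 was seen in 3.79%, 1.72% and 1.72% of stromal cells, at or below the neutrophil shares in WT and FLOX. The neutrophil cells were deeper, so these shares were not compared at equal depth. The ratio of stromal Kcnj8 to the B lineage was 1.83 in WT (0.57 to 6.82) and 2.31 in FLOX (0.70 to 12.0). In VC the 61 neutrophil-lineage and 152 B-lineage cells held no Kcnj8 UMI, which allows up to 2.15 and 1.18 CPM (3 UMIs).

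The stromal ratio of the subunits was above that of endothelium in each library. Per Kcnj8 UMI there were 18.6 (9.89 to 39.4), 21.6 (14.2 to 34.4) and 23.9 (11.9 to 56.1) Abcc9 UMIs in WT, FLOX and VC stroma, against 4.47, 4.67 and 4.43 in all endothelial cells. Per Stab2 UMI there were 3.21 (2.38 to 4.38), 3.23 (2.69 to 3.89) and 5.16 (3.62 to 7.55) Abcc9 UMIs in stroma. The same ratio was 1.01, 1.00 and 1.01 over all endothelial cells, but 3.54, 2.85 and 2.62 in those with 1 Stab2 UMI, and endothelial cells with none held Abcc9 as well. In the 231, 995 and 434 stromal cells with no Stab2 UMI, Abcc9 stood at 57.0, 34.2 and 27.8 CPM. The part of endothelial RNA in stromal Abcc9 was not tested. The mural genes Rgs5 (10.4, 8.05 and 6.17 CPM), Myh11 (7.72, 9.91 and 4.59) and Acta2 (2.68, 1.56 and 1.15) were low in the stromal gate, while Pdgfrb and Notch3, which LepR stroma also expresses, led the mural list there.

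Between libraries, endothelial Abcc9 and Kcnj8 were each higher in WT than in the other two when all endothelial cells were summed, and FLOX and VC were then close to one another. The comparison asks what loss of endothelial Vegfc goes with. VC over WT was 0.74 for Abcc9 (0.73 to 0.75) and 0.75 for Kcnj8 (0.72 to 0.77), and FLOX over WT was 0.75 (0.74 to 0.76) and 0.72 (0.70 to 0.74). These ratios share the WT library. VC over FLOX, the pair that differs by Cre, was 0.98 for Abcc9 (0.97 to 1.00) and 1.04 for Kcnj8 (1.01 to 1.07). Under other scalings these changed side, with Abcc9 at 1.02 by median-of-ratios scaling and Kcnj8 at 0.993 by the mean of each cell's CPM and 0.996 at 3000 UMIs per cell. Neither gene reached 1.5-fold in any pair. At 1.5-fold or more, 3.43% of 8376 genes were lower and 3.21% higher in VC than WT, 0.919% and 2.04% in VC than FLOX, and 2.07% and 2.05% in FLOX than WT.

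**Figure D4:**
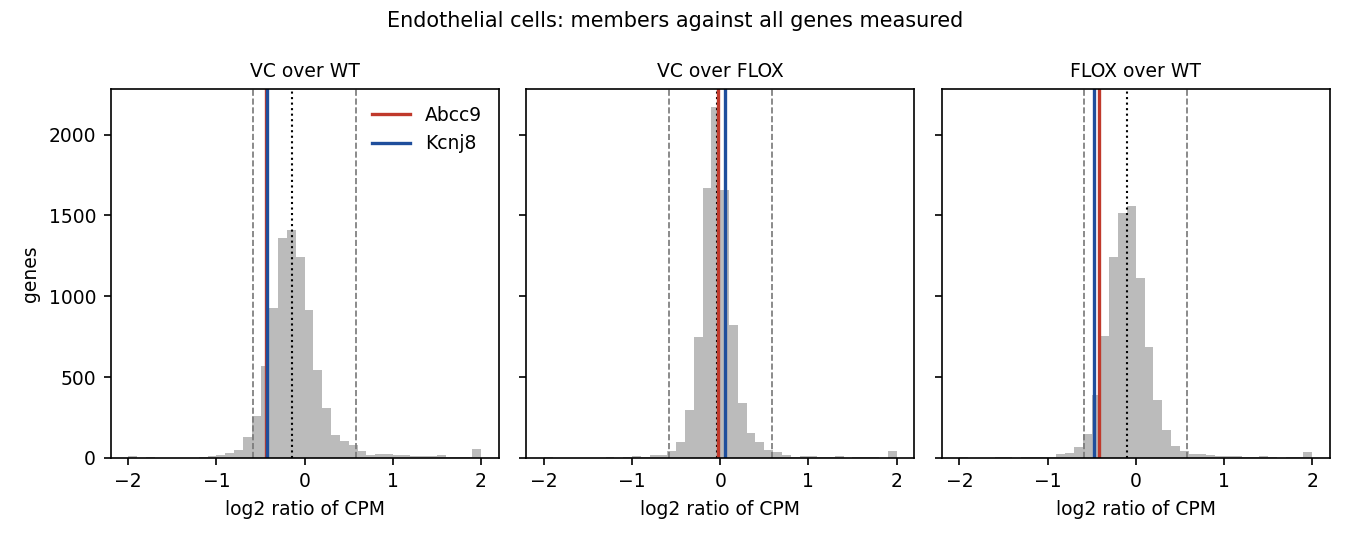
Histograms of the log2 ratio of CPM between libraries for the 8376 genes measured in endothelial cells, with Abcc9 (red) and Kcnj8 (blue) as solid lines, the median of all genes dotted and 1.5-fold dashed; genes beyond 2 on either side are in the end bars. Both genes lie left of the median against WT, where the lines nearly coincide in VC over WT, and near it in VC over FLOX.

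The typical gene was also lower against WT, with a median log2 ratio of -0.14 for VC over WT, -0.10 for FLOX over WT and -0.042 for VC over FLOX. Relative to that median, Abcc9 stood at -0.29, -0.31 and 0.017 and Kcnj8 at -0.28, -0.38 and 0.095. Of all genes, 9.79% ranked below Abcc9 and 10.97% below Kcnj8 in VC over WT. The ratios differed between Stab2 bins. In that of 5 or more Stab2 UMIs, VC over WT was 0.77 for Abcc9 and 0.76 for Kcnj8, and VC over FLOX 0.96 and 1.02 (0.98 to 1.05). With 2 to 4 Stab2 UMIs Abcc9 was 0.92 in VC over WT (0.85 to 1.01), 1.14 in FLOX over WT (1.06 to 1.22) and 0.81 in VC over FLOX (0.75 to 0.88). With 1 UMI these were 0.71, 1.03 and 0.69, and with none 0.56, 0.43 and 1.29. Kcnj8 in VC over WT was 1.04 (0.89 to 1.21) with 2 to 4 UMIs, 1.89 (1.35 to 2.67) with 1 and 0.50 (0.33 to 0.74) with none. The order of the libraries in the sum was thus that of the highest bin, which held most of the UMIs, and not of every bin. The bins are set on raw UMIs and the libraries differ in depth, so a bin need not hold like cells in each. With 2 to 4 Stab2 UMIs the 6 sinusoidal genes summed to 3795 (WT), 5053 (FLOX) and 4794 CPM (VC). The 5 neutrophil genes summed to 497, 13591.5 and 10846.5 CPM in that bin. The part of these in the ratios by bin was not tested. In the highest bin Stab2 itself stood at 1804 (WT), 1493 (FLOX) and 1403 CPM (VC). The 5 neutrophil genes summed to 718, 6016 and 3622 CPM in the same cells, and the part of that RNA in the differences was not tested. Cells high in Cxcl9 numbered 437 (WT), 253 (FLOX) and 1022 (VC), and in sinusoidal cells with no Cxcl9 UMI Abcc9 stood at 1641, 1370.2 and 1402 CPM.

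In LepR stroma Abcc9 was lower in VC than in WT (0.44, 0.36 to 0.54) and than in FLOX (0.74, 0.62 to 0.88), and lower in FLOX than in WT (0.59, 0.50 to 0.71). At 1.5-fold or more, 8.67% of 8626 genes were lower in VC than WT, 1.31% in VC than FLOX and 5.75% in FLOX than WT, while 7.66%, 2.04% and 7.48% were higher. Abcc9 passed that fold in VC and FLOX against WT and not in VC against FLOX. Endothelial RNA in the gate went the same way, with stromal Stab2 at 19.5 (WT), 11.5 (FLOX) and 5.31 CPM (VC). In stromal cells with no Stab2 UMI the Abcc9 ratios were 0.49 (0.39 to 0.61), 0.81 (0.68 to 0.97) and 0.60 (0.50 to 0.73). Other RNA in the gate moved as well: the 5 neutrophil genes summed to 321 (WT), 2931 (FLOX) and 8323 CPM (VC), and the 6 endothelial genes to 46.6, 31.8 and 16.1. Of the 6 LepR stromal genes 2 were lower in VC than WT, with a median log2 ratio of -0.41 against -0.062 for all genes, and 2 in FLOX than WT (-0.44 against -0.012). The part of these in the Abcc9 ratios was not tested. Kcnj8, on 8 to 23 UMIs, was under the minimum for such a comparison.

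Of the 4 K-ATP subunits only Abcc9 and Kcnj8 were present at 10 CPM or more. Kcnj11, the other pore, had 1, 0 and 1 UMI in the endothelial cells of WT, FLOX and VC, and Abcc8, the other receptor, had none in endothelial or stromal cells. Among the 15 inward rectifiers, 3 reached 10 CPM in an endothelial or stromal class. Kcnj15 stood at 40.3, 32.5 and 31.1 CPM in endothelial cells, and from 9.51, 6.41 and 3.02 CPM without Stab2 to 41.7, 35.2 and 34.1 with 5 or more UMIs. Kcnj2, the strong rectifier Kir2.1 that responds to shear in arterial endothelium, stood at 12.5, 6.66 and 4.60 CPM. Of the 11 genes of the ABCC family 5 reached 10 CPM. Abcc3, an organic anion exporter, stood at 15.6, 16.4 and 14.9 CPM in the highest Stab2 bin and 3.80, 3.84 and 5.29 without Stab2. Abcc1, Abcc4 and Abcc5, exporters of conjugates and cyclic nucleotides, were within 1.5-fold between those bins in each library.

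**Figure D5:**
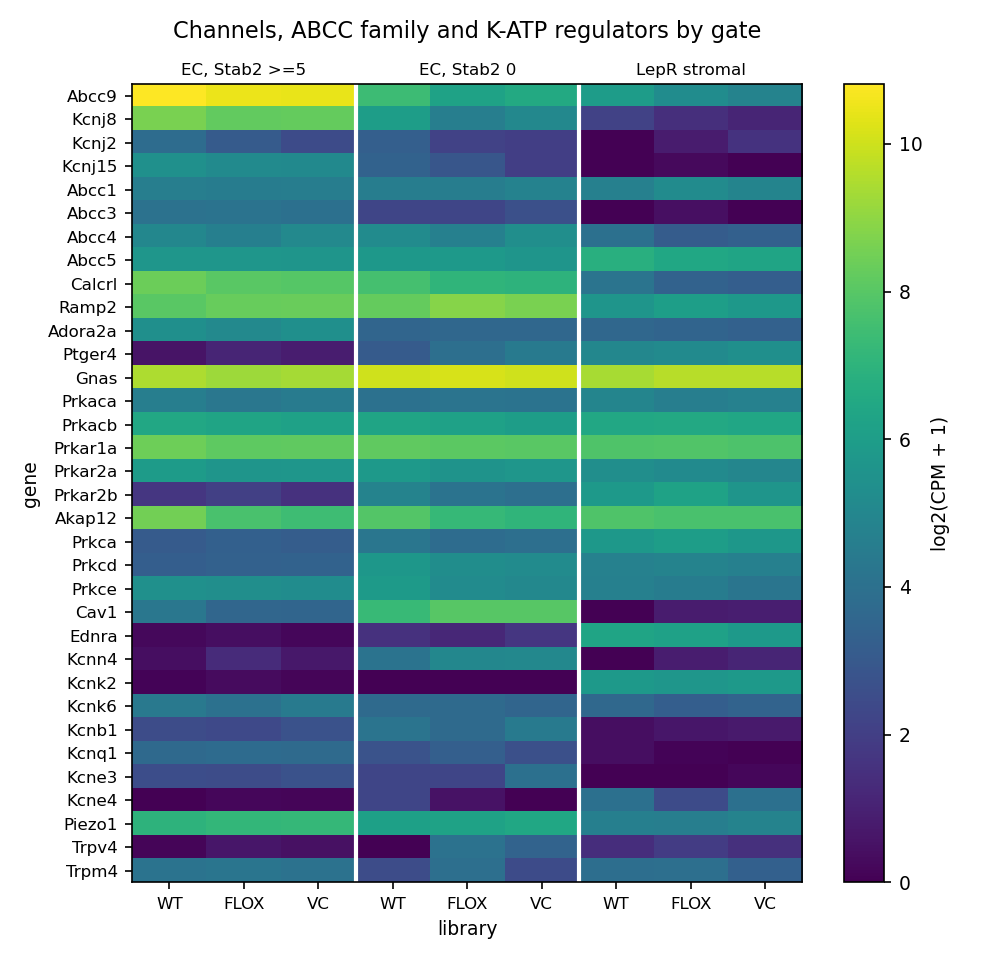
Level of the channel, ABCC family and K-ATP regulator genes that reached 10 CPM in an endothelial or stromal class, as log2(CPM + 1), in endothelial cells with 5 or more and with 0 Stab2 UMIs and in LepR stromal cells of each library. Colours compare classes within a row, since 3′ counts of different genes are not on one scale; Abcc9 and Kcnj8 are brightest on the left, and Kcnk2 and Ednra appear in the stroma.

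Of 19 receptors, kinases and scaffolds known to act on vascular K-ATP channels, 16 reached 10 CPM. The list was 0 higher and 1 lower of 12 measured in VC over WT at 1.5-fold, beside 3.21% higher and 3.43% lower of all 8376 genes, with a median log2 ratio of -0.18 against -0.14. The lower gene was Akap12, a scaffold of protein kinase A, with endothelial levels of 357 (WT), 199.5 (FLOX) and 169 CPM (VC). Akap12 was also the 1 of 12 lower in FLOX over WT, where 2.07% of all genes were lower and 2.05% higher. In VC over FLOX none of the 12 passed, beside 0.919% lower and 2.04% higher of all genes. Nothing is read from these counts of 12 genes. Calcrl and Ramp2, which form the adrenomedullin receptor upstream of Gs, stood at 332, 257 and 240.0 CPM and at 271, 345 and 337. Adora2a, a Gs-coupled adenosine receptor, stood at 40.2, 33.1 and 40.5 CPM with 5 or more Stab2 UMIs and 10.5, 11.1 and 11.3 without. Gnas and Prkar1a, the Gs alpha subunit and a regulatory subunit of protein kinase A, stood at 745, 674 and 703 and at 346, 283 and 291 CPM. Cav1, the caveolin that can hold Kir6.1 at the membrane, ran opposite to the channel, at 156, 253 and 259 CPM without Stab2 and 18.3, 10.8 and 10.6 with 5 or more UMIs. Ednra, the endothelin receptor of contractile cells, stood at 78.2, 72.8 and 55.8 CPM in LepR stroma and 0.20, 0.36 and 0.26 in endothelial cells.

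Of 17 other potassium and cation channels 10 reached 10 CPM, and no member of the 4 measured passed 1.5-fold in VC over WT or over FLOX. Of all 8376 genes, 3.43% were lower and 3.21% higher in VC over WT, and 0.919% and 2.04% in VC over FLOX. Nothing is read from a count of 4 genes beside such shares. Piezo1, the mechanosensitive cation channel, stood at 126, 137 and 143 CPM in endothelial cells. Kcnk6 (TWIK2) stood at 19.6, 15.2 and 18.9 CPM, Trpm4 at 16.3, 17.4 and 15.3 and Kcnq1 at 11.8, 12.2 and 11.9. Kcnn4, the intermediate calcium-activated channel, ran against Stab2, at 16.2, 30.8 and 32.5 CPM without it and 0.32, 1.49 and 0.60 in the highest bin. The bin without Stab2 also held leukocyte RNA, with 3 leukocyte genes at 700 (WT), 449 (FLOX) and 342 CPM (VC) in sum. Its part in the Kcnn4 levels was not tested. Kcnk2 (TREK-1) was a stromal channel in these data, at 55.4, 50.5 and 55.6 CPM in LepR stroma and at most 0.21 in endothelial cells.

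The genes most like each subunit were found over 15 sums, the 4 Stab2 bins and the LepR stroma of each library, by Pearson's r of log2(CPM + 1) among 9033 genes. For Abcc9 they were Dab2 (r = 0.991), Nr2f1 (0.990), Smad5 (0.990), Cxadr (0.987), Il6st (0.987) and Crygn (0.987). Dab2 is an endocytic adaptor and Il6st the shared receptor of the interleukin-6 family. For Kcnj8 they were F8 (r = 0.996), Dnase1l3 (0.994), Tfpi (0.994), Gpm6a (0.994), Mylip (0.994) and Gm1673 (0.993). F8 is coagulation factor VIII and Tfpi the tissue factor pathway inhibitor. Each subunit was not the nearest neighbour of the other: Kcnj8 ranked 127 for Abcc9 and Abcc9 ranked 236 for Kcnj8, both at r = 0.951. The 2 sets, of 6 genes each among 9033, share no gene, and nothing is read from that. Neither set was uniform in the stroma. Among the genes like Abcc9, WT stromal levels ran from 3.36 CPM (Crygn) to 289 (Il6st), and among those like Kcnj8 from 6.38 (Dnase1l3) to 92.6 (Tfpi). The 15 sums share libraries, and the pair was chosen from these cells, so these correlations are a description.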

How the data were processed

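Droplet 3′ RNA sequencing (10x v3.1 kit, per the labels' protocols) was deposited as UMI count matrices. The authors' counts were made with Cell Ranger 2.1.1 and mm10 per the submitters' processing notes, which also name Seurat 3.1, while the matrix headers name version 3.1.0. Raw counts were used as deposited. Cells with at least 500 genes and at most 10% mitochondrial UMIs were gated by UMIs of marker genes, and UMIs were summed per gate and library as CPM, with exact Poisson intervals, exact conditional binomial intervals for ratios and exact Clopper-Pearson intervals for shares (95%). PCR duplicates are removed by UMIs, but intervals cover counting error only. Library comparisons used genes averaging 10 CPM or more, with 50 or more UMIs in all, and a sum of 0 stood at 3 UMIs. Thinning drew 3000 UMIs per cell. Doublets were kept: Scrublet (scanpy 1.11.5) marked 10, 72 and 9 cells of WT, FLOX and VC. Scripts were tested on simulated data.

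The members and lists were chosen with earlier results of these data known. The members were named throughout, list genes where they reached 10 CPM in an endothelial or stromal class, and for likeness the 6 highest r among genes with 200 UMIs and 20 CPM. The arterial, stromal and other-lineage gates were fixed as marker thresholds. Leaving out cells with Ptprc or mural genes, binning thinned cells on their full Stab2 count, and the 5-fold limit were added after the data were seen. Analyses used Python 3.11.15, numpy 2.4.6 and scipy 1.17.1.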

Additional observations from a re-analysis of the deposited data

How the results depend on the processing

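Over 10 results, 76 alternative values were computed under 9 settings listed in advance and 2 added after seeing the data; 53 stayed within counting error, 20 moved and 3 reversed. The log2 ratio of Abcc9 between Stab2 bins (3.88, the median of the libraries) was 4.16 with at least 1000 genes and at most 5% mitochondrial UMIs, 3.41 with Cxcl12 under 10, 2.64 by the mean of cells, 1.96 at 3000 UMIs and 3.50 without cells holding Ptprc or mural genes; that of Kcnj8 (3.26) was 2.71, 1.98 and 1.33 under the Cxcl12, mean-of-cells and 3000-UMI settings. For VC over FLOX, Abcc9 (-0.025) was -0.052 with the 1000-gene filter, -0.065 in a stricter endothelial gate, 0.035 by median-of-ratios scaling (reversed), -0.11 by the mean of cells and -0.069 at 3000 UMIs; Kcnj8 (0.053) was 0.11 by that scaling and, reversed, -0.0098 by the mean of cells and -0.0061 at 3000 UMIs. For VC over WT, Abcc9 (-0.44) was -0.48, -0.41, -0.30 and -0.47 under the first 4 of these, and Kcnj8 (-0.42) was -0.28 by that scaling. The co-detection ratio (2.42) was 1.10 at 3000 UMIs. Of 8376 genes, 153 passed 1.5-fold in VC against both others, and 65 of 3430 at 50 CPM or more, where fewer genes were measured. The cause of the other shifts was not tested. Scaling and the mean of cells do not apply to co-detection, and thinned stromal Kcnj8 gave no value, with 0 UMIs in VC. No paired analysis was possible because each genotype has 1 library. That single library limits every comparison of genotypes, and stromal Kcnj8 is limited by 8 to 23 UMIs.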
